A study of Mus musculus with 12 samples.

Results

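The genes of the unfolded protein response and the integrated stress response were followed in mouse hearts with and without myocardial infarction, in wild-type animals and in animals carrying a CCRR transgene. These are 42 genes, of 36982 gene names with a probe on the arrays. They were chosen by name, as probes that carry the symbol of a listed endoplasmic reticulum stress or ATF4 pathway gene. That rule uses no measured value, but earlier results of these data were known when genes and lists were chosen. All 42 had a probe, 75 probes in total, and 40 were well above background on all 12 arrays. Of these genes 41 were tested. The exception was Slc7a3, a transporter of cationic amino acids, which was well above background on 1 array, of the TG group.

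The study measured total RNA of 12 hearts on single-colour Agilent arrays, in 4 groups of 3, and by its title concerns CCRR, a long non-coding RNA, and inflammation after infarction. WT are wild-type hearts and WT+MI wild-type hearts after myocardial infarction, both of strain C57/BL6. TG are hearts of the CCRR transgenosis group, and TG+MI hearts of that group after infarction. No label gives the strain of TG and TG+MI, so a strain difference and the transgene cannot be told apart. All animals were kept under an alternating 12-hour day and night, and fresh heart tissue was taken. The labels give no age, no promoter for the transgene, no number of transgenic lines, no time from infarction to sampling, no region of the heart and no sham operation. They also do not say whether the 3 samples of a group are separate animals, so p-values cover the spread among the arrays, part of which may be technical.

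Cells sense unfolded proteins in the endoplasmic reticulum through the sensors IRE1 (Ern1), PERK (Eif2ak3) and ATF6. IRE1 splices the Xbp1 messenger into its active form, ATF6 is cut to release a transcription factor, and PERK phosphorylates the initiation factor eIF2 alpha. Phosphorylated eIF2 alpha lowers general translation while favouring that of Atf4, and other kinases feed the same step when amino acids are scarce or viruses are present, hence the name integrated stress response. ATF4 and its partners raise genes of amino acid synthesis and uptake and of tRNA charging, and XBP1 and ATF6 raise chaperones and the machinery that removes misfolded proteins. Arrays read messenger levels only, so neither the splicing of Xbp1 nor the cutting of ATF6 nor phosphorylation was measured here. In bulk tissue, fewer cells of a type and less RNA per cell cannot be told apart.

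Levels are log2 of the processed signal relative to the 75th percentile of the array, so a value of 0 is the 75th percentile and a difference of 1 is a doubling. The 75th percentile lay between 198 and 374 intensity units per array, between 49.3% and 57.2% of spots were well above background, and 0 spots were saturated. Slide 1 held all WT and WT+MI arrays with TG 1 and TG 2, and slide 2 held TG 3 with all TG+MI arrays. All 8 cardiomyocyte markers examined, such as Myh6 and Tnnt2, were well above background on all 12 arrays. A difference passed where limma's adjusted p was under 0.05 over 19762 tested genes, from a single model of all 12 arrays.

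Promoters of the genes were read from a RefSeq table on the GRCm38.p6 build, which held 35 of the 42 genes with 39 promoters, and the 250 bases before each start were searched on both strands. They are shown because their motifs belong to the branches of the response that the values below follow. The ER stress element, a site for ATF6 and its partner NF-Y that reads CCAAT, then 9 bases of any kind, then CCACG, matched 4 of the 39 promoters (10.3%), against 37 of 32851 promoters in the table (0.113%). In each line capitals mark the match, in the direction of the gene.
Calr: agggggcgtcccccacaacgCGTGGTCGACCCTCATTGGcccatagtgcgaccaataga
Creld2: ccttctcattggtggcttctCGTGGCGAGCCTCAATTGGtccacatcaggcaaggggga
Pdia6: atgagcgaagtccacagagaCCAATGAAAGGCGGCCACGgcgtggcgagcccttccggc
Syvn1: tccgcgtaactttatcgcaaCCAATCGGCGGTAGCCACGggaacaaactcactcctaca
These stretches lie at chr8:84847055-84847113 on the minus strand for Calr, chr15:88819500-88819558 on the plus strand for Creld2, chr12:17266471-17266529 on the plus strand for Pdia6 and chr19:6046512-6046570 on the plus strand for Syvn1. Their matches begin 162, 126, 98 and 44 bases before the start, in that order, and those of Calr and Creld2 are on the opposite strand to the gene. The short motif CCACG, which is part of the full element, was present in 24 of the 39 promoters (61.5%) and in 28.3% of all.

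The core of the amino acid response element, TGATGNAA, through which ATF4 and its partners act, matched 7 of the 39 promoters (17.9%), against 3.45% of all promoters in the table. Those 7 were the promoters of Aars, Asns, Atf3, Chac1, Fgf21, Herpud1 and Vldlr, of which 4 are shown. The match of Asns runs with the gene, and the other 3 are on the opposite strand and appear here in reverse complement.
Asns: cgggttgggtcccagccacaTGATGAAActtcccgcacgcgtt
Atf3: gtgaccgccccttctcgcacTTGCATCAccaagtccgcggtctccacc
Aars: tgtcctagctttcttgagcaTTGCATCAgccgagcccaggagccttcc
Vldlr: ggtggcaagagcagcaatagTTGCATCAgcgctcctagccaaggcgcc
They lie at chr6:7693210-7693252 on the minus strand for Asns, chr1:191183416-191183463 on the minus strand for Atf3, chr8:111033710-111033757 on the plus strand for Aars and chr19:27216800-27216847 on the plus strand for Vldlr. The unfolded protein response element TGACGTGG matched 0 of the 39 promoters and 0.563% of all, which says only that these letters are not in these windows. A match describes the letters of the promoter and is no proof of binding.

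In wild-type hearts, 24 of the 41 tested genes rose after infarction and 2 fell. Of all tested genes 47.9% passed, 18.6% higher and 29.4% lower. The median difference of the 41 genes was 0.66, against -0.14 over all tested genes. By role, 5 of 7 transcription factors rose, as did 4 of 5 feedback and stress effectors, 5 of 7 enzymes of amino acid and one-carbon metabolism and 5 of 6 folding factors and secreted proteins of the endoplasmic reticulum. In the other roles the counts that rose were 1 of 3 tested transporters, 2 of 4 tRNA synthetases, 2 of 4 degradation genes and 0 of the 2 genes for a hormone and a lipoprotein receptor. None of the 3 sensors passed in limma, with 1 of them under 0.05 before adjustment. All 3 arrays of WT+MI lay above all 3 of WT for 30 genes and below them for 3, where 63.7% of all tested genes did not overlap in either direction.

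**Figure D1:**
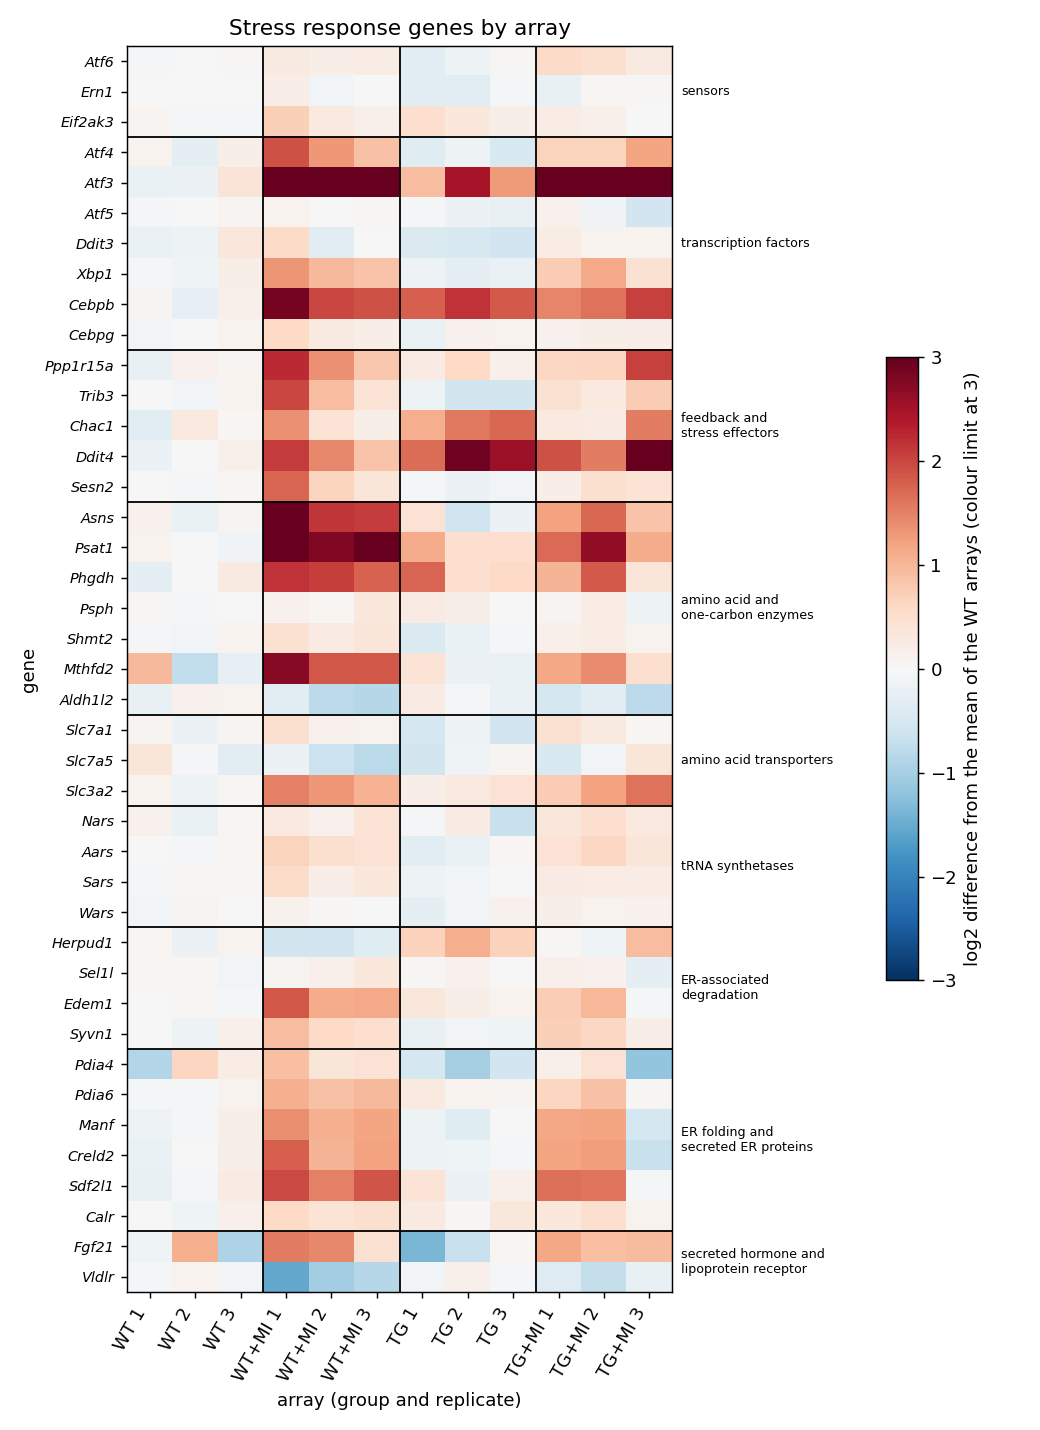
Heat map of the 41 tested genes (rows, grouped by role) on the 12 arrays (columns). Colour is the log2 difference from the mean of the 3 WT arrays, red for higher and blue for lower, with the colour limit at 3. The WT+MI columns are red for Atf3, Cebpb, Asns and Psat1, the TG columns for Cebpb and Ddit4, and array TG+MI 3 is blue for Creld2, Manf and Pdia4.

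The sensors differed little by the probes read here. Atf6 was 2.39, 2.43 and 2.46 in WT and 2.69, 2.64 and 2.64 in WT+MI, a difference of 0.23 ± 0.12 (SE) that did not pass (limma adjusted p = 0.131) although the groups did not overlap. Ern1 was 0.88, 0.90 and 0.86 in WT and 1.08, 0.81 and 0.87 in WT+MI, which overlapped (0.039 ± 0.12, adjusted p = 0.81). Eif2ak3 was -0.18, -0.29 and -0.30 in WT and 0.45, 0.03 and -0.12 in WT+MI (0.38 ± 0.15, adjusted p = 0.0595). Every WT+MI array of Eif2ak3 was above every WT array, and without WT+MI 3 the difference was 0.50 and passed (adjusted p = 0.0257). A second Eif2ak3 probe, above background on 11 arrays, pointed the other way (-0.15), and the mean over probes was 0.11 (adjusted p = 0.55). A second Ern1 probe that was well above background on all 12 arrays gave 0.60. With the mean over all probes of a gene, both Ern1 (0.59, adjusted p = 0.0126) and Atf6 (0.82, adjusted p = 0.0154) passed. These means include dim probes. The second Atf6 probe, above background on 5 arrays, gave 1.40. Further Ern1 probes, above background on 0, 0 and 5 arrays, gave 0.79, 0.18 and 1.37. The reading of these sensors therefore depends on the probe.

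Among the transcription factors, Atf4, the main effector of the integrated stress response, was 5.67, 5.32 and 5.74 in WT and 7.49, 6.87 and 6.46 in WT+MI. It rose by 1.36 ± 0.25 (adjusted p = 0.0016), a 2.57-fold change with no overlap. Atf3, a stress-induced factor downstream of ATF4 (probe at chr1:192994547-192994606, mm9), was -2.24, -2.23 and -1.66 in WT and 3.52, 2.20 and 1.62 in WT+MI. Its rise of 4.49 ± 0.57 (22.5-fold, adjusted p = 0.000316) was the largest of the 41 genes. Xbp1, the target of IRE1, was 4.91, 4.83 and 5.14 in WT and 6.28, 5.94 and 5.82 in WT+MI, and rose by 1.05 ± 0.18 (adjusted p = 0.00117).

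Cebpb, a leucine zipper factor that pairs with ATF4 and also acts in myeloid cells (probe at chr2:167515828-167515887, mm9), was 2.61, 2.29 and 2.68 in WT and 5.40, 4.53 and 4.43 in WT+MI. It rose by 2.26 ± 0.25, or 4.79-fold (adjusted p = 0.000184). Its relative Cebpg rose by 0.35 ± 0.13 (adjusted p = 0.0442). Ddit3, which encodes CHOP, the factor tied to cell death under prolonged stress, was 0.31, 0.37 and 0.85 in WT and 1.08, 0.17 and 0.52 in WT+MI. The Ddit3 arrays overlapped, and the difference of 0.08 ± 0.21 did not pass (adjusted p = 0.776), with a 95% interval from -0.39 to 0.55. A second Ddit3 probe, well above background on all 12 arrays, gave -0.56, outside that interval. Atf5, another ATF4-related factor, differed by 0.05 (adjusted p = 0.817).

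Of the feedback genes and effectors, Ppp1r15a (GADD34), which guides the removal of the phosphate from eIF2 alpha, rose by 1.48 ± 0.41 (adjusted p = 0.0135). Ddit4 (REDD1), an inhibitor of the growth kinase mTORC1 (probe at chr10:59412486-59412545, mm9), was 2.52, 2.71 and 2.86 in WT and 4.79, 4.14 and 3.55 in WT+MI, and rose by 1.46 ± 0.45 (adjusted p = 0.0211). Trib3, a pseudokinase that restrains ATF4 output, rose by 1.11 (adjusted p = 0.0168), and Sesn2, a leucine sensor, by 0.92 (adjusted p = 0.0192). Chac1, which degrades glutathione, differed by 0.66 with overlapping groups (adjusted p = 0.184). For all 5 of these genes WT+MI 1 was the highest and WT+MI 3 the lowest array of the group.

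Among the enzymes of serine, asparagine and one-carbon synthesis, Psat1 and Asns gave the largest rises of the 41 genes after Atf3. Psat1, the aminotransferase of serine synthesis (probe at chr19:15979622-15979681, mm9), was -1.06, -1.16 and -1.25 in WT and 2.30, 1.63 and 1.91 in WT+MI, a rise of 3.1 ± 0.34 (8.58-fold, adjusted p = 0.000169). Asns, asparagine synthetase (probe at chr6:7625171-7625228, mm9), was 0.15, -0.18 and 0.10 in WT and 3.00, 2.17 and 2.13 in WT+MI, a rise of 2.41 ± 0.31 (5.30-fold, adjusted p = 0.000366). Both were clear of overlap by more than the range within either group. Phgdh, the first enzyme of serine synthesis, rose by 2.0 ± 0.39, and Mthfd2, a mitochondrial folate enzyme, by 2.15 ± 0.42. Shmt2, which splits serine in mitochondria, rose by 0.35 ± 0.12, while Psph, the last step of serine synthesis, did not pass (0.18, adjusted p = 0.257). Aldh1l2, another mitochondrial folate enzyme, fell by 0.65 on the log2 scale (SE 0.19, adjusted p = 0.0163). A second Aldh1l2 probe, well above background on all 12 arrays, gave -0.71, but another, above background on 10 arrays, gave 0.85, and a second Shmt2 probe, above background on 1 array, gave -0.16. With the mean over probes neither Aldh1l2 (-0.17, adjusted p = 0.69) nor Shmt2 (0.10, adjusted p = 0.856) passed.

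Slc3a2, the heavy chain shared by several amino acid transporters, was 2.69, 2.44 and 2.64 in WT and 4.09, 3.89 and 3.64 in WT+MI, and rose by 1.28 ± 0.20 (adjusted p = 0.0008). One further Slc3a2 probe gave 1.52 and another -0.29, both well above background on all 12 arrays. Slc7a5, its light chain partner for leucine uptake, was lower by 0.54 on the log2 scale with overlapping groups and did not pass (adjusted p = 0.109), and Slc7a1, for cationic amino acids, differed by 0.24 (adjusted p = 0.244). The tRNA synthetases, which charge tRNA with amino acids, differed less. Aars was 2.61, 2.57 and 2.67 in WT and 3.28, 3.09 and 3.06 in WT+MI and rose by 0.53 ± 0.12 (adjusted p = 0.00548), although 2 further probes, above background on 0 arrays, pointed down, another, above background on 9 arrays, gave 0.50, and the mean over probes gave 0.16 (adjusted p = 0.632). Sars rose by 0.35 (adjusted p = 0.0203; 0.64 and adjusted p = 0.114 with the mean over probes), and Nars (0.27) and Wars (0.05) did not pass.

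In the degradation branch, Edem1, which picks out misfolded glycoproteins, was -0.06, -0.05 and -0.12 in WT and 1.78, 1.04 and 1.07 in WT+MI, and rose by 1.37 ± 0.26 (adjusted p = 0.00204). Syvn1, the ubiquitin ligase HRD1, rose by 0.68 ± 0.16 (adjusted p = 0.00542), while its cofactor Sel1l (0.19, adjusted p = 0.247) did not pass. Herpud1, a scaffold of the same complex, lay lower, at 4.09 to 4.29 in WT+MI against 4.49 to 4.77 in WT, and did not pass (-0.49, adjusted p = 0.115). Without TG+MI 3, an array of another group that enters the shared spread, the same difference passed (adjusted p = 0.0133).

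Of the folding factors 5 of 6 rose. Pdia6, a disulfide isomerase, was 5.20, 5.22 and 5.38 in WT and 6.34, 6.14 and 6.23 in WT+MI, a rise of 0.97 ± 0.18 (adjusted p = 0.002). Sdf2l1, a partner of the chaperone BiP, rose by 1.79 ± 0.38, Creld2 by 1.34 ± 0.43, the secreted factor Manf by 1.21 ± 0.37 and the calcium-binding chaperone Calr by 0.50 ± 0.13. Pdia4, another disulfide isomerase, overlapped and did not pass (0.56, adjusted p = 0.321). All 4 genes with an ER stress element in the promoter, Calr, Creld2, Pdia6 and Syvn1, were among those that rose. Of the 7 genes with the amino acid response core, Aars, Asns and Atf3 rose, Vldlr fell, and Chac1, Fgf21 and Herpud1 did not pass.

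Vldlr, the very low density lipoprotein receptor (probe at chr19:27324042-27324101, mm9), was 6.06, 6.21 and 6.01 in WT and 4.57, 5.07 and 5.23 in WT+MI. It fell by 1.14 on the log2 scale (SE 0.18, adjusted p = 0.000816), with no overlap. Fgf21, a hormone made mainly in liver, was well above background on 0 WT arrays, 1 WT+MI array, 0 TG arrays and 3 TG+MI arrays, so its WT and TG levels are bounds. WT+MI was at least 1.10-fold brighter than WT on that bound, and the difference did not pass (adjusted p = 0.0804), although it passed without WT 2 (adjusted p = 0.0155) or WT+MI 3 (adjusted p = 0.0433) and under quantile normalization (adjusted p = 0.0495). In TG+MI against TG it did not pass either (adjusted p = 0.0637), but passed under quantile normalization (adjusted p = 0.0398) and without WT 2 (adjusted p = 0.0372) or WT 3 (adjusted p = 0.0487). Of 3 liver markers 2 rose in WT+MI against WT. Alb, above background on 5 arrays, was 2.53 in WT+MI 1 and 1.88 in WT+MI 2, and between -5.97 and -3.11 on the other 10 arrays. Ttr, above background on 6 arrays, was -2.33 or higher in WT+MI against -4.44 to -3.78 in WT. Apoa2, the only one well above background on all 12 arrays, did not rise. It was 1.48, 1.62 and 0.85 in WT+MI against 1.51 to 1.65 in WT. The part of liver RNA in the Fgf21 signal was not tested.

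**Figure D2:**
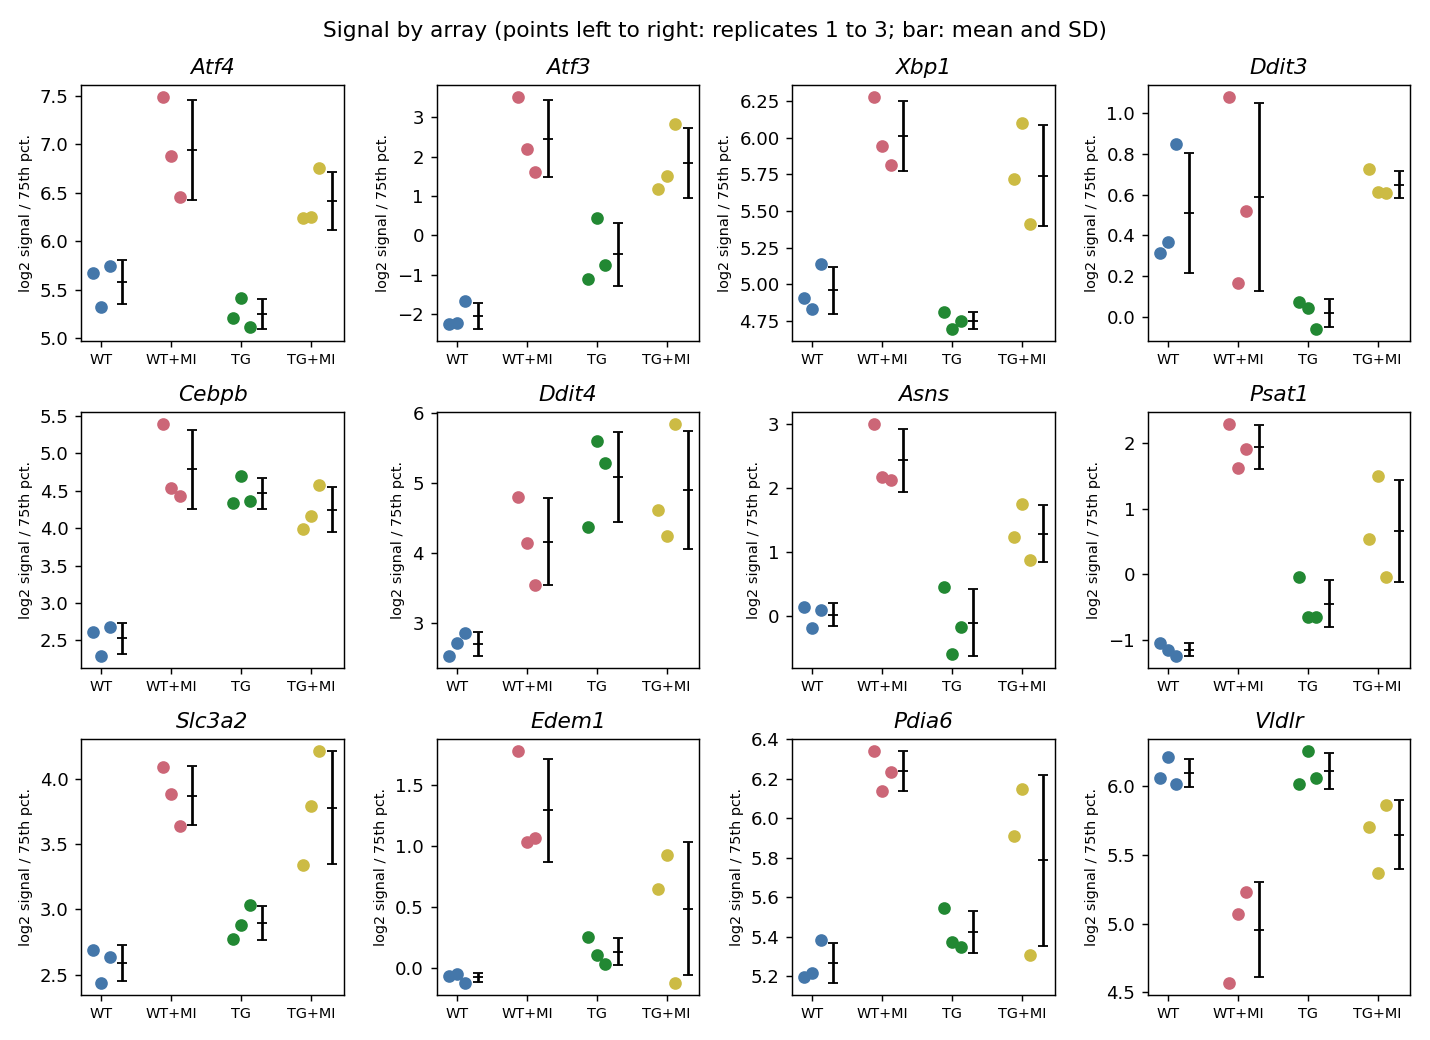
Level of 12 of the genes on each array (vertical axis, log2 signal relative to the array's 75th percentile; horizontal axis, the 4 groups). Points are the replicates 1 to 3 from left to right, and the bar beside them is the mean and SD of the 3. Psat1 lies between -1.25 and -1.06 in WT and between 1.63 and 2.30 in WT+MI, while Cebpb lies between 4.33 and 4.70 in TG without infarction.

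Of these 26 calls, 16 held when any single array was left out. Without WT+MI 1, the highest of its group for 36 of the 41 genes, 17 genes rose: Cebpg, Creld2, Ddit4, Manf, Ppp1r15a, Sars and Shmt2 were lost, with adjusted p up to 0.156. Leaving out WT 1 lost Cebpg, Creld2, Ddit4, Manf, Sars and Shmt2, and leaving out WT 2 lost Cebpg, Creld2, Ddit4, Manf, Sesn2, Shmt2 and Trib3 while Fgf21 passed, each time with 18 genes higher. Aldh1l2 was lost without WT 2, WT 3, WT+MI 2 or WT+MI 3 (adjusted p 0.0545 to 0.0574), which left 1 gene lower, and without TG+MI 3 there were 3. Shmt2 was also lost without WT+MI 3 (adjusted p = 0.0617), and Cebpg in 9 of the 12 omissions, all but those of WT+MI 3, TG 1 and TG+MI 3 (adjusted p 0.0521 to 0.156).

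Other genes of both pathways were read from a list of 54 further genes on the arrays, 52 of them tested. In WT+MI 31 rose and 3 fell, with a median difference of 0.51. Gdf15, a stress-induced secreted factor, rose by 4.80 ± 0.46 (adjusted p = 9.74e-05), Tnfrsf10b, a death receptor, by 1.39 and the synthetase gene Cars by 1.04. Hspa5, which encodes the chaperone BiP, rose by 0.54 ± 0.14 (adjusted p = 0.00916). Those that fell were Cth, a cysteine-forming enzyme (by 1.60), the aminotransferase gene Gpt2 (by 1.38) and the secreted factor Stc2 (by 1.05).

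Markers of several cell types moved with this comparison. Of 8 neutrophil markers 5 rose and 2 fell, and their summed signal was 140 to 157 times the 75th percentile in WT and 305 to 502 in WT+MI. Csf3r alone made up 90.3% to 96.3% of that sum in WT and 32.3% to 52.7% in WT+MI, so the other 7 markers were also summed, after these shares were seen: 5.21 to 13.6 in WT and 145 to 340 in WT+MI. Of 8 monocyte and macrophage markers 3 rose, with sums of 128 to 165 in WT and 171 to 278 in WT+MI. Both sums were highest in WT+MI 1, the array on which most of the stress genes were highest of their group. Of 8 plasma and B cell markers 5 were tested and 1 rose; the sums were 0.977 to 2.64 in WT and 1.32 to 2.19 in WT+MI, and Tnfrsf17 was above background on 0 arrays. Cardiomyocyte markers fell for 3 of 8, with sums of 3014 to 3977 in WT and 2337 to 3215 in WT+MI. Of 4 tested atrial markers 1 rose, with sums of 54.4 to 55.9 in WT and 235 to 676 in WT+MI. Nppa was the highest atrial marker on each WT and WT+MI array. On WT+MI 2 and 3 it was 8.25 and 7.86 on the log2 scale, against 5.67 to 5.72 in WT. Myl4 was 0.66 and 0.83 on these arrays, below WT at 1.12 to 1.39, and Sln, Myl7 and Bmp10 lay within their WT ranges. The higher sums of WT+MI 2 and 3 therefore follow Nppa and not the other atrial markers. Fibroblast markers fell for 2 of 7 (243 to 277 against 152 to 198), endothelial markers for 2 of 5 (63.1 to 67.4 against 48.1 to 53.5) and erythroid markers for 2 of 4 tested (671 to 1106 against 478 to 600.0). The median differences were -0.23 for fibroblast and 0.017 for endothelial markers. Dcn and Kdr, the brightest of these lists in WT, lay below WT, as did Col1a2, Lum, Tcf21 and Tie1. Postn and Pdgfra lay above WT, and Col1a1, Cdh5, Emcn and Pecam1 overlapped with it. The part of these cells in the stress gene differences was not tested.

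Without infarction, the transgenic hearts differed from wild type in few of these genes: 2 of 41 rose, Cebpb and Ddit4. Among all tested genes 2.63% passed, 1.49% higher and 1.14% lower. No member fell by limma's adjusted p, and before adjustment 6 were higher and 2 lower at p under 0.05. The median difference of the 41 genes was -0.08, against -0.06 over all tested genes. The groups did not overlap for 16 genes, 11 higher and 5 lower, where 33.5% of all tested genes did not overlap.

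Cebpb was 4.33, 4.70 and 4.36 in TG, against 2.29 to 2.68 in WT. It rose by 1.94 ± 0.25, or 3.83-fold (adjusted p = 0.00579). Ddit4 was 4.37, 5.61 and 5.28 in TG, against 2.52 to 2.86 in WT, and rose by 2.39 ± 0.45, or 5.24-fold (adjusted p = 0.0238). All TG arrays of both genes lay above all WT arrays. With slide as a block the Cebpb difference was 1.99 (adjusted p = 0.0159) and that of Ddit4 was 2.29 and no longer passed (adjusted p = 0.0655), while on slide 1 alone Ddit4 passed (adjusted p = 0.0484). For TG against WT that block amounts to leaving out TG 3, the TG array on slide 2, so both are a single check. Cebpb held whichever array was left out. Ddit4 did not pass without WT 1, WT 2, WT 3, TG 2 or TG 3, at 2.13 to 2.47 (adjusted p 0.0655 to 0.089).

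Several effectors and degradation genes were separated without passing, as 33.5% of all tested genes were separated, passing or not. Chac1 was 1.95, 2.44 and 2.59 in TG against 0.51, 1.15 and 0.93 in WT (1.47 ± 0.39, adjusted p = 0.0833), and it passed without WT+MI 1 (adjusted p = 0.0498) or without TG+MI 3 (adjusted p = 0.03). Herpud1 was 5.35, 5.74 and 5.33 in TG against 4.71, 4.49 and 4.77 in WT (0.82 ± 0.24, adjusted p = 0.114), and it passed on slide 1 alone (0.89, adjusted p = 0.0392) and without TG+MI 3 (adjusted p = 0.0128). Atf3 was -1.11, 0.43 and -0.76 in TG, above all WT arrays (1.56 ± 0.57, adjusted p = 0.186). All 5 feedback and stress effectors were separated from WT, 3 higher and 2 lower. The lower ones were Trib3 and Sesn2. Trib3 was 1.21, 0.81 and 0.81 in TG against 1.27 to 1.46 in WT. Sesn2 was -0.21, -0.31 and -0.22 in TG against -0.19 to -0.08 in WT, and neither passed. Chac1, Herpud1, Trib3 and Sesn2 are named here after their values were seen. Atf3, Chac1 and Herpud1 are 3 of the 7 genes with the amino acid response core in the promoter. Asns (-0.12, adjusted p = 0.888), Aars (-0.15, adjusted p = 0.572), Fgf21 and Vldlr, the rest of the same 7, overlapped with WT.

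None of the sensors, nor Atf4, Xbp1 or Ddit3, passed in TG against WT. Atf4 was 5.21, 5.42 and 5.12 in TG (-0.33, adjusted p = 0.538), Xbp1 4.81, 4.70 and 4.75 (-0.21, adjusted p = 0.597) and Ddit3 0.07, 0.04 and -0.06 (-0.49, adjusted p = 0.259). Xbp1 and Ddit3 lay below all WT arrays, and Atf4 overlapped. Atf6 was 2.09, 2.28 and 2.46, Ern1 0.56, 0.54 and 0.83 and Eif2ak3 0.25, 0.07 and -0.09, and none of the 3 passed, with 0 of the 3 under 0.05 before adjustment. Eif2ak3 lay above all WT arrays (0.33) and Ern1 below them (-0.24), while Atf6 overlapped. The second Eif2ak3 probe gave -0.39 and the second Ern1 probe 0.06. Folding factors differed by -0.70 (Pdia4) to 0.22 (Calr), and all 6 overlapped with WT. Of the 52 other pathway genes 0 passed by limma's adjusted p, and 7 were higher and 2 lower at p under 0.05 before adjustment.

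Markers moved in this comparison too. Of 4 tested atrial markers 2 rose, and the sum of the 5 atrial markers on the arrays was 54.4 to 55.9 in WT and 476 to 1493 in TG. In TG, Nppa was 7.94 to 8.87, Myl4 6.89 to 9.05 and Sln 5.60 to 7.86 on the log2 scale. Of 7 fibroblast markers 2 rose, with sums of 243 to 277 in WT and 329 to 424 in TG, and 3 of 8 neutrophil markers fell, with sums without Csf3r of 5.21 to 13.6 in WT and 1.49 to 2.45 in TG. Within slide 1, WT took row 1 while TG 1 and TG 2 took row 2. Of 4 tested adipocyte markers 0 passed, with a median of 2.26 and sums of 190 to 214 in WT and 211 to 296 in TG. Adipoq was 3.33 on TG 1 against -1.61 and -1.13 on TG 2 and 3. Cidec was 4.48 against -0.19 and 0.51, and Ucp1 4.59 against -5.32 and -5.76. TG 1 was also the highest TG array for 6 of the 7 amino acid and one-carbon enzymes, but the lowest for 3 of the 4 tRNA synthetases. Among all 41 genes it was the highest for 16 and the lowest for 16. The part of atrial tissue, of fat, of fibroblasts and of array position in the Cebpb and Ddit4 differences was not tested.

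**Figure D3:**
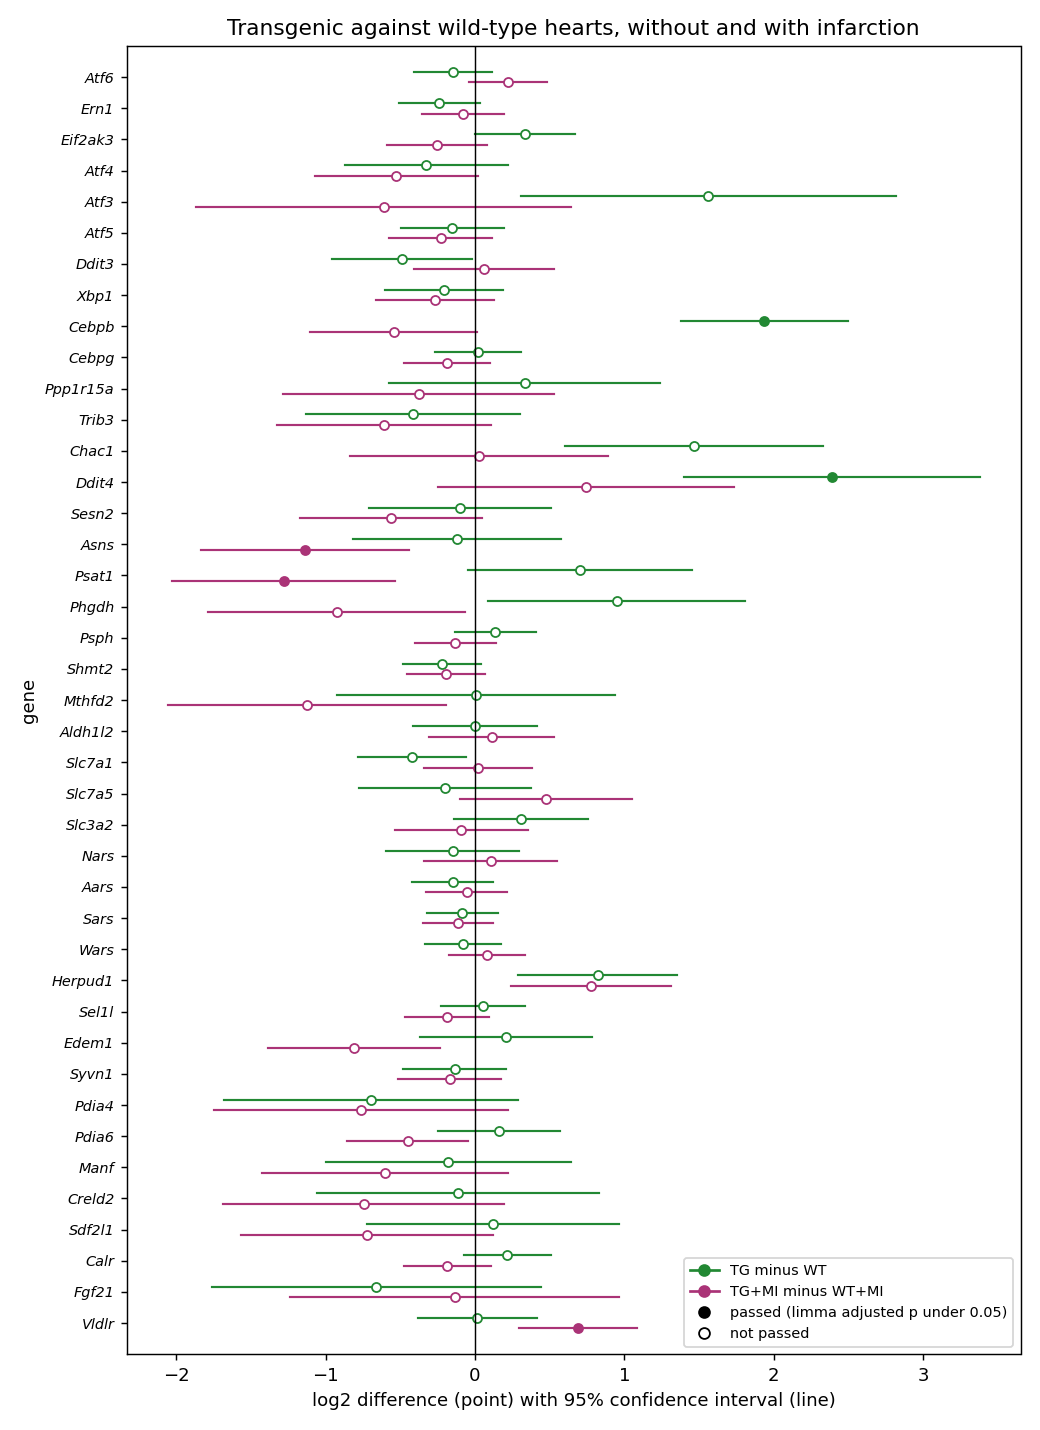
Log2 difference between transgenic and wild-type hearts for the 41 tested genes (rows), without infarction (TG minus WT) and after it (TG+MI minus WT+MI). Points are differences and lines 95% confidence intervals, and filled points passed limma's adjusted p of 0.05. Cebpb (1.94) and Ddit4 (2.39) passed without infarction, and Asns (-1.14), Psat1 (-1.28) and Vldlr (0.69) after it.

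After infarction, 3 of the 41 genes differed between transgenic and wild-type hearts: Asns and Psat1 were lower and Vldlr higher in TG+MI than in WT+MI. Among all tested genes 12.2% passed, 7.77% higher and 4.39% lower, so 3 of 41 is no more than the share among all genes. The median difference of the 41 genes was -0.19, against 0.09 over all tested genes, and 30 of the 41 were below 0. The groups did not overlap for 9 of the 41 genes, 3 higher and 6 lower, where 34% of all tested genes did not overlap. No TG+MI array shared a slide with a WT+MI array, so slide and genotype cannot be told apart here except through the slide of TG 3. With slide as a block 0 of the 41 genes and 0 of all tested genes passed in limma, with 3 of the 41 genes under 0.05 before adjustment.

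Psat1 was 0.54, 1.50 and -0.05 in TG+MI, below all 3 WT+MI arrays at 1.63 to 2.30 and above 2 of the 3 TG arrays at -0.66. The difference was -1.28 ± 0.34 (adjusted p = 0.0399). Asns was 1.23, 1.75 and 0.89 in TG+MI, also below all WT+MI arrays at 2.13 to 3.00 (-1.14 ± 0.31, adjusted p = 0.0442). Vldlr was 5.70, 5.37 and 5.86 in TG+MI, above all WT+MI arrays at 4.57 to 5.23 (0.69 ± 0.18, adjusted p = 0.0389). All 3 had passed in WT+MI against WT, in the opposite direction, and both comparisons use the WT+MI arrays. With slide as a block the differences were -0.97 for Psat1 (adjusted p = 0.711), -1.05 for Asns (adjusted p = 0.692) and 0.77 for Vldlr (adjusted p = 0.669), and with the mean over probes that of Psat1 was -0.74 (adjusted p = 0.073) and that of Asns -1.15 (adjusted p = 0.0811).

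These calls were not robust to single arrays. Asns held in 4 of 12 omissions, Vldlr in 3 and Psat1 in 2. All 3 were lost without WT 1, WT 2, WT 3, WT+MI 1, WT+MI 2, TG 3, TG+MI 1 or TG+MI 3, Psat1 also without WT+MI 3, and Psat1 and Vldlr also without TG 2. In those fits Asns was -1.27 to -0.86 (adjusted p 0.0584 to 0.147), Psat1 -1.44 to -0.92 (adjusted p 0.0525 to 0.135) and Vldlr 0.50 to 0.75 (adjusted p 0.0525 to 0.118). Without TG+MI 2, in contrast, 7 genes passed, with Edem1 (-1.03, adjusted p = 0.0292), Pdia6 (-0.63, adjusted p = 0.036) and Phgdh (-1.30, adjusted p = 0.0389) lower and Herpud1 (0.98, adjusted p = 0.0269) higher in addition.

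Among the other serine and one-carbon genes, Phgdh (-0.93, adjusted p = 0.125) and Mthfd2 (-1.13, adjusted p = 0.0929) were also lower without passing. Of all 7 amino acid and one-carbon enzymes 6 were below 0, with Shmt2 at -0.19. Aldh1l2 was the exception, at 0.11, and did not pass. Edem1 was 0.65, 0.93 and -0.12 in TG+MI, below every WT+MI array (-0.81, adjusted p = 0.0635), and Herpud1 was 4.70, 4.53 and 5.59, above every WT+MI array (0.78, adjusted p = 0.0589). Pdia6 was 5.91, 6.15 and 5.31, which overlapped with WT+MI (-0.45, adjusted p = 0.116). All 6 folding factors were below 0, from -0.76 (Pdia4) to -0.19 (Calr), and 0 of them passed. The transcription factors overlapped except Cebpg: Atf4 differed by -0.53 (adjusted p = 0.163), Atf3 by -0.61 (adjusted p = 0.477), Xbp1 by -0.27 (adjusted p = 0.309) and Ddit3 by 0.06 (adjusted p = 0.867).

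Of the 52 other pathway genes 1 was higher and 4 lower in TG+MI. Gpt2 was higher by 0.98 (adjusted p = 0.0272). The cystine transporter gene Slc7a11 fell by 2.72 (adjusted p = 0.0241), the chaperone gene Hyou1 by 1.03 (adjusted p = 0.0285) and Tnfrsf10b by 0.75 (adjusted p = 0.0336). Neutrophil markers moved alike: 4 of 8 were lower, with sums of 147 to 163 in TG+MI against 305 to 502 in WT+MI (without Csf3r 21.3 to 51.6 against 145 to 340), and so were 3 of 8 macrophage markers, with sums of 98.6 to 164 against 171 to 278. Their part in the Asns and Psat1 differences was not tested.

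Within transgenic hearts, 9 of the 41 genes rose after infarction and none fell by limma's adjusted p, and before adjustment 18 were higher and 3 lower at p under 0.05. Among all tested genes 8.81% passed, 5.17% higher and 3.64% lower. The median difference of the 41 genes was 0.46, against 0.04 over all tested genes. The groups did not overlap for 20 genes, 18 higher and 2 lower, where 29.9% of all tested genes did not overlap. This comparison shares the TG arrays with that of TG against WT and the TG+MI arrays with the one before.

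Atf4 was 6.23, 6.25 and 6.76 in TG+MI against 5.12 to 5.42 in TG, a rise of 1.17 ± 0.25 (adjusted p = 0.0181). Xbp1 was 5.72, 6.10 and 5.41 against 4.70 to 4.81 and rose by 0.99 ± 0.18 (adjusted p = 0.00989). Atf3 was 1.17, 1.51 and 2.84 against -1.11 to 0.43, a rise of 2.32 ± 0.57 (adjusted p = 0.0317). In each of the 3 the groups did not overlap. Atf6, the only sensor to pass, was 3.01, 2.91 and 2.70 against 2.09 to 2.46 and rose by 0.60 ± 0.12 (adjusted p = 0.0138). Its second probe, above background on 5 arrays, gave 0.24, and with the mean over probes Atf6 did not pass (0.42, adjusted p = 0.294). Ddit3 was 0.72, 0.61 and 0.61 against -0.06 to 0.07 and did not pass (0.63 ± 0.21, adjusted p = 0.0917), and its second probe gave -0.01.

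Asns was 1.23, 1.75 and 0.89 in TG+MI against -0.58 to 0.45 in TG and rose by 1.39 ± 0.31 (adjusted p = 0.0238). Slc3a2 was 3.34, 3.79 and 4.21 against 2.78 to 3.03 and rose by 0.88 ± 0.20 (adjusted p = 0.0243). Aars was 3.05, 3.24 and 2.98 against 2.30 to 2.67 and rose by 0.62 ± 0.12 (adjusted p = 0.0135), while 3 further Aars probes, above background on 0 arrays, pointed down and another, above background on 9 arrays, gave 0.63. With the mean over probes Aars was 0.015 (adjusted p = 0.978) and Asns 1.31 (adjusted p = 0.0695), and neither passed. Slc7a1 rose by 0.68 ± 0.16 (adjusted p = 0.03) and Syvn1 by 0.64 ± 0.16 (adjusted p = 0.0306). The arrays of these genes did not overlap between the groups. Among the other serine and one-carbon enzymes, Psat1 (1.12, adjusted p = 0.0671) and Mthfd2 (1.02, adjusted p = 0.159) were higher without passing, Phgdh overlapped (0.12, adjusted p = 0.877), and Vldlr lay lower (-0.46, adjusted p = 0.136).

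On slide 2 alone, TG 3 against the 3 TG+MI arrays, all 9 of these genes were higher, by 0.41 to 2.60, but none passed (lowest adjusted p 0.376), nor did any of the tested genes, and 10 of the 41 had p under 0.05 before adjustment. With slide as a block 0 of the 41 genes and 118 of all tested genes passed, and 12 of the 41 were under 0.05 before adjustment. The differences of the 9 genes with that block equal those on slide 2 alone, so they rest on TG 3 as the TG array. Xbp1 alone held in every omission of a single array. Leaving out TG 1 left 2 calls, losing Aars, Atf3, Atf4, Atf6, Slc3a2, Slc7a1 and Syvn1. Leaving out TG+MI 2 also left 2, losing Aars, Asns, Atf3, Atf6, Slc3a2, Slc7a1 and Syvn1. Asns, Slc3a2 and Syvn1 were lost without TG 2, and Asns, Atf3, Atf4, Slc7a1 and Syvn1 without TG 3. Asns, Slc7a1 and Syvn1 were lost without TG+MI 1, and Atf3 without TG+MI 3. In all these fits the adjusted p of a lost call lay between 0.0502 and 0.114.

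Of the 52 other pathway genes 4 rose and 2 fell in TG+MI against TG. Gdf15 rose by 2.90 ± 0.46 (adjusted p = 0.00562), Tnfrsf10b by 0.85 (adjusted p = 0.0178) and the transcription factor gene Creb3 by 0.46 (adjusted p = 0.0301), while Cth fell by 1.21 (adjusted p = 0.00433) and Stc2 by 1.06 (adjusted p = 0.0298). Neutrophil markers rose for 4 of 8, with sums of 116 to 126 in TG and 147 to 163 in TG+MI (without Csf3r 1.49 to 2.45 and 21.3 to 51.6), and fibroblast markers fell for 4 of 7, with sums of 329 to 424 and 202 to 224. Atrial sums were 476 to 1493 in TG and 75 to 322 in TG+MI. Nppa was the highest atrial marker on each TG+MI array, at 7.39, 7.90 and 6.18 on the log2 scale. Of 4 tested adipocyte markers 0 passed, with a median difference of -2.57. Their part in the differences of Atf3, Asns and the other genes that rose was not tested.

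**Figure D4:**
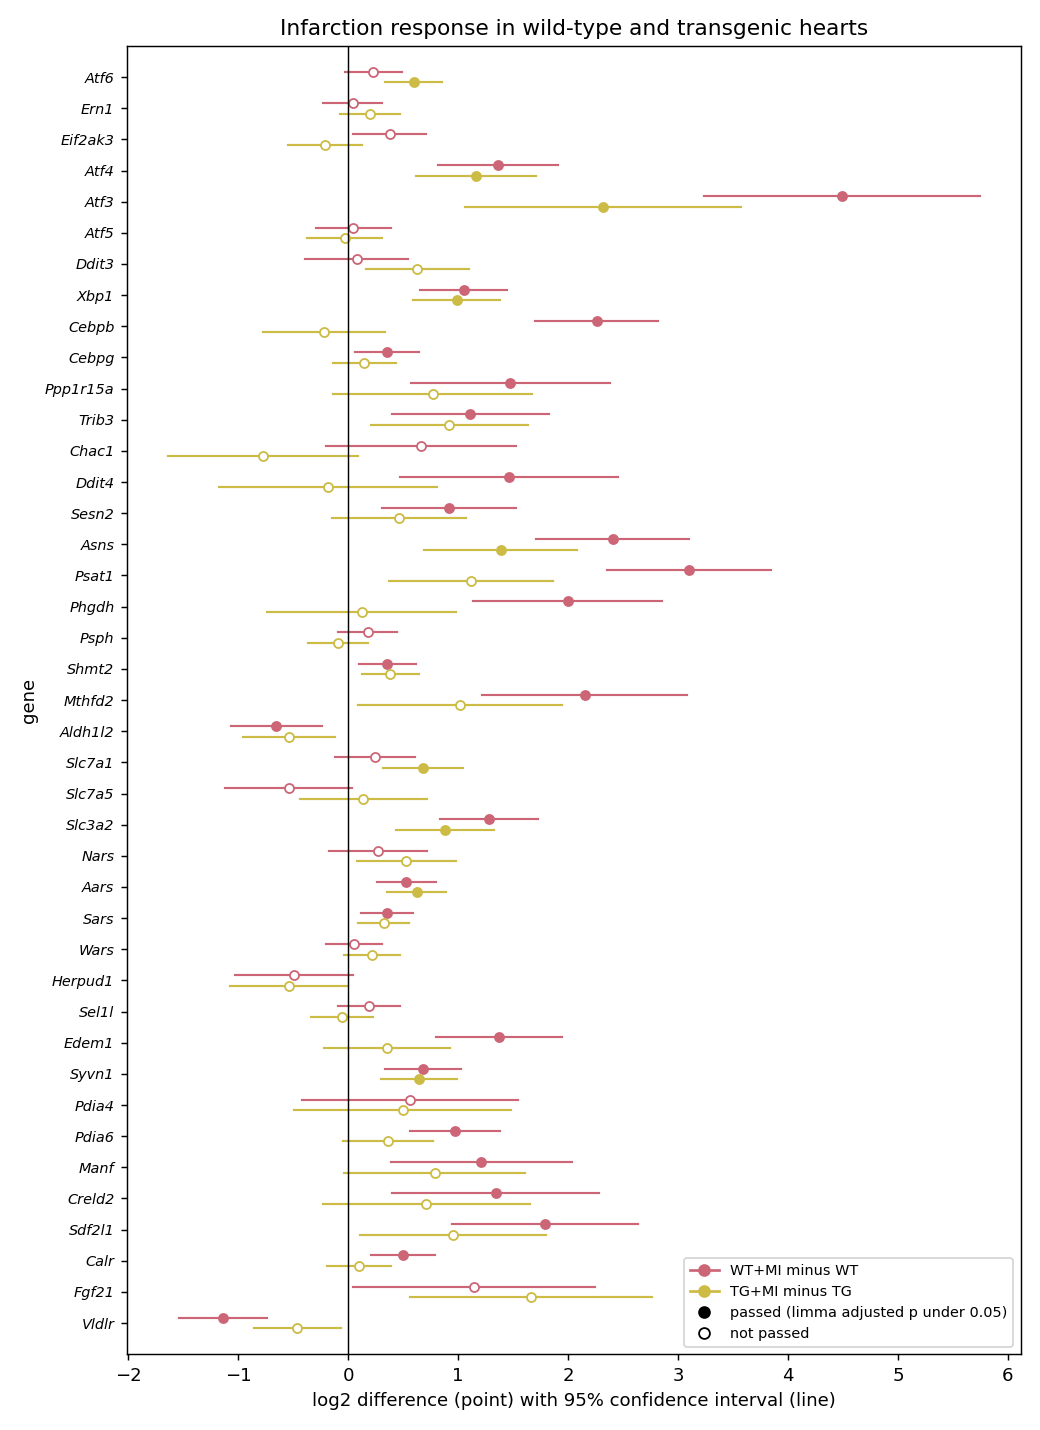
Log2 difference after infarction for the 41 tested genes (rows) in wild-type hearts (WT+MI minus WT) and transgenic hearts (TG+MI minus TG). Points are differences and lines 95% confidence intervals, and filled points passed limma's adjusted p of 0.05. Atf4 (1.36 and 1.17) and Xbp1 (1.05 and 0.99) lie close together, and Cebpb (2.26 and -0.22) and Psat1 (3.1 and 1.12) lie apart.

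Whether the response to infarction differed by genotype was tested as the difference of both responses. Of the 41 genes 2 had a smaller response in transgenic hearts, Cebpb and Psat1, where 8.75% of all tested genes passed, 5.74% higher and 3.01% lower. No gene of the 41 had a larger one by limma's adjusted p, and before adjustment 1 was higher and 10 lower at p under 0.05. Cebpb, 3.99, 4.16 and 4.58 in TG+MI against 4.33 to 4.70 in TG, gave a response of -0.22 ± 0.25 in transgenic against 2.26 in wild-type hearts, a difference of -2.48 ± 0.36 (adjusted p = 0.0155). Its level without infarction was already high in TG. That difference held whichever array was left out, and with slide as a block it was -2.38 and did not pass (adjusted p = 0.126).

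Psat1 responded by 1.12 in transgenic and 3.1 in wild-type hearts, a difference of -1.98 ± 0.48 (adjusted p = 0.04). It held in 3 of 12 omissions; without WT 1, WT 2, WT 3, WT+MI 1, WT+MI 2, TG 1, TG 2, TG+MI 1 or TG+MI 3 the difference was -2.14 to -1.63 (adjusted p 0.0511 to 0.0893). It was -1.78 with slide as a block (adjusted p = 0.239) and -0.95 with the mean over probes (adjusted p = 0.102). Without TG+MI 2, Edem1 (-1.24, adjusted p = 0.0459), Phgdh (-2.25, adjusted p = 0.0258) and Pdia6 (-0.79) passed as well. Phgdh followed at -1.88 (adjusted p = 0.0574), Edem1 at -1.02 (adjusted p = 0.093) and Atf3 at -2.17 (adjusted p = 0.098), none of which passed. For Atf4 the difference of responses was -0.20, with a 95% interval from -0.97 to 0.57, and for Xbp1 it was -0.06, from -0.62 to 0.50. Ddit4 was 4.62, 4.23 and 5.85 in TG+MI, a response of -0.18 against 1.46 in wild type, and the difference of -1.65 did not pass (adjusted p = 0.108). Of the other pathway genes Slc7a11 alone passed, at -2.68 (adjusted p = 0.0448).

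Markers moved in this difference of responses as well. Of the 4 tested atrial markers 1 was lower (median of the list -7.78), as were 1 of 8 macrophage markers (-1.27), 1 of 7 fibroblast markers (-0.98) and 1 of 5 plasma and B cell markers (0.18). Of 8 neutrophil markers 1 was higher and 1 lower (-0.77), and of 5 endothelial markers 1 was higher (0.10). No erythroid or adipocyte marker passed in limma, and the medians of the 4 tested in each list were 2.71 and -2.11. Their part in the Cebpb and Psat1 differences was not tested.

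Array TG+MI 3 carried different genes of the response in opposite directions, a pattern named after its values were seen and given without a test. It was the lowest array of its group for 24 of the 41 genes and the highest for 12, where 37.1% and 44.8% of all tested genes were. For all 6 folding factors it was the lowest. Creld2 was 4.73 and 4.82 in TG+MI 1 and 2 and 2.90 in TG+MI 3, Manf was 3.26, 3.26 and 1.56, and Sdf2l1 was 1.10, 1.05 and -0.57. In TG+MI 3 these 3 genes lay within or below the range of the TG arrays, which was -0.73 to -0.14 for Sdf2l1, 1.71 to 2.08 for Manf and 3.39 to 3.51 for Creld2. It was likewise the lowest array for all 7 enzymes of amino acid and one-carbon metabolism, for which TG+MI 2 was the highest. The split did not follow the branches. On TG+MI 3 Atf4 differed by 0.52 from the mean of TG+MI 1 and 2, but Asns by -0.61 and Psat1 by -1.07.

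For 4 of the 5 feedback and stress effectors the same array was the highest of its group. Ddit4 stood 1.42, Ppp1r15a 1.41 and Chac1 1.27 above the mean of the other 2 arrays, and Atf3 among the transcription factors 1.50. Herpud1, at 5.59, was 0.98 above that mean, apart from Edem1, Syvn1 and Sel1l, which were lowest on this array. The neutrophil sums without Csf3r of TG+MI 1, 2 and 3 were 21.3, 51.6 and 26.5, the macrophage sums 142, 164 and 98.6 and the atrial sums 175, 322 and 75. Without TG+MI 3, 13 genes rose and 1 fell in TG+MI against TG. Creld2 (1.34, adjusted p = 0.00629), Manf (1.35, adjusted p = 0.00142), Sdf2l1 (1.50, adjusted p = 0.00387), Pdia6 (0.60, adjusted p = 0.0143) and Psat1 (1.47, adjusted p = 0.0157) then passed, Herpud1 was lower (-0.86, adjusted p = 0.0094) and Atf3 did not pass (1.82, adjusted p = 0.0673).

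WT+MI 1 stood apart in 1 direction: it was the highest of its group for 36 of the 41 genes, where 36.5% of all tested genes were. The exceptions included Vldlr, which was lowest on that array. Of the atrial markers, 3 were far higher on WT+MI 1 than on the other 2 arrays of the group: Sln was 6.11 against -5.62 and -5.15, Myl7 6.68 against -4.48 and -4.02, and Myl4 7.15 against 0.66 and 0.83. The atrial sum was 676 on WT+MI 1, 306 on WT+MI 2 and 235 on WT+MI 3, and its part in the high stress gene levels of WT+MI 1 was not tested. Nppa was the highest atrial marker on each array of this group. It was 8.25 on WT+MI 2 and 7.86 on WT+MI 3, where Sln, Myl7 and Myl4 were low. With WT+MI 1 and TG+MI 3 both left out, 21 genes rose and 4 fell in WT+MI against WT, and 19 rose and 3 fell in TG+MI against TG.

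**Figure D5:**
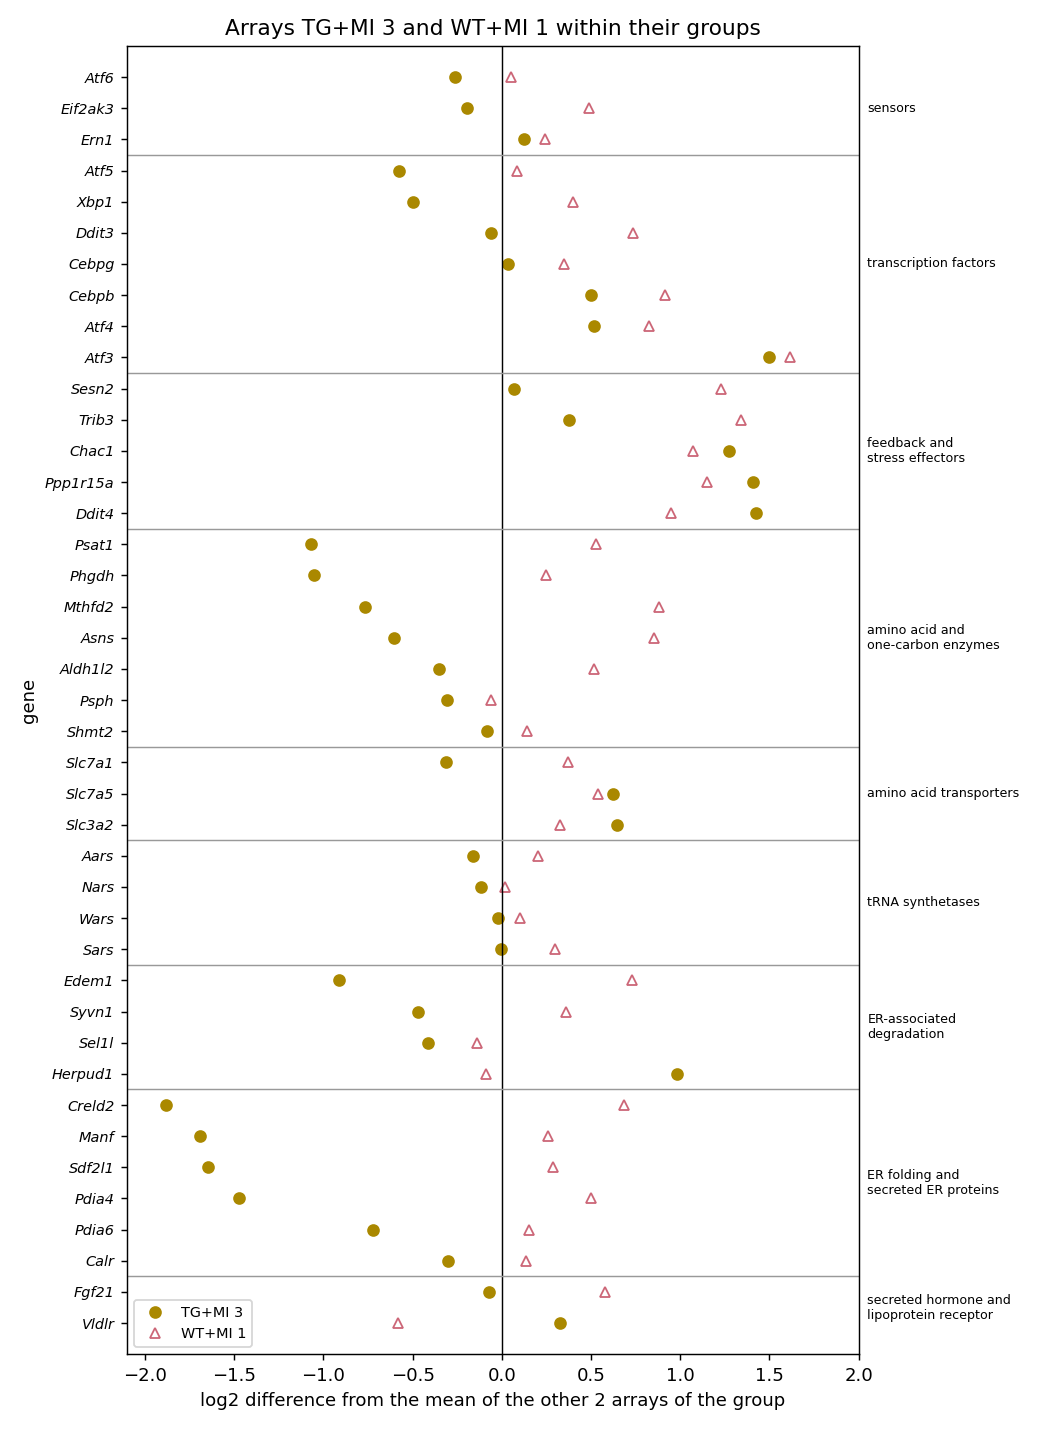
Distance of array TG+MI 3 from the mean of TG+MI 1 and 2 (filled circles) and of WT+MI 1 from the mean of WT+MI 2 and 3 (open triangles), in log2 units on the horizontal axis, for the 41 tested genes grouped by role. TG+MI 3 is low for Creld2 (-1.88) and Manf (-1.69) and high for Atf3 (1.50) and Ddit4 (1.42), while WT+MI 1 is to the right of 0 for most genes.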

How the data were processed

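Spot intensity was background-subtracted by Agilent Feature Extraction 12.0.3.1, per the file headers, and the authors deposited it with no normalization across arrays. Their deposited log2 values, used as an alternative, ranked probes as each array's own signal did (column medians 4.23 to 4.24); how they were normalized is not stated. Here log2 intensity minus each array's 75th percentile was used. Outlier spots were left out, spots of a probe averaged and 49 probes dropped. Names were updated through RefSeq (32966 probes by accession, 10218 by symbol, 520 by synonym, 12852 kept). A gene was read from its probe of highest mean and tested if well above background on all 3 arrays of a group. Probe positions are the files', on mm9; promoters are on GRCm38.p6.

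Groups were compared with limma 3.58.1 in R 4.3.3 (lmFit, eBayes, Benjamini-Hochberg) in a group-means model of all 12 arrays. On simulated data for WT+MI against WT over 19762 genes, 58% of differences of 1 and 93% of differences of 2 (log2) were recovered. Only 100 genes were changed at each size, with independent noise, whereas 47.9% of tested genes passed in the real comparison. These rates therefore do not give the power of that comparison. Leaving out WT+MI 1 and TG+MI 3 together was added after seeing the data. Genes, lists and tests were chosen with earlier results of these data known. Per-array values are given for the sensors, Atf4, Xbp1 and Ddit3 and, in each comparison, for the genes of lowest adjusted p that passed (up to 10, 6, 6, 6 and 4). Of the other pathway genes up to 3 per direction are named, and Hspa5 after its value was seen. Replicate numbers were not taken as pairs, since same-numbered samples' deviations correlated at -0.258 to 0.093.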

Additional observations from a re-analysis of the deposited data

Results flagged for a closer look

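The response to infarction of Cebpb differed between genotypes by -2.48 on the log2 scale (TG+MI minus TG, less WT+MI minus WT). Cebpb was drawn out because the limma test of that difference passed. The response of Psat1 differed by -1.98 and was drawn out for the same reason. With 3 arrays per group, no test of single outlying arrays was made.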

How the results depend on the processing

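Scaling by quantiles and the authors' table kept all calls of the 5 comparisons, with at most 2 genes gained in any. In WT+MI against WT, 17 to 25 genes were higher and 1 to 3 lower when single arrays were left out, and 4 lower with WT+MI 1 and TG+MI 3 both out. In TG against WT, 1 to 4 were higher without single arrays, 1 without the filter on dim probes, 1 with the slide block, 1 with the replicate block, 4 when fitting only both groups and 5 with both arrays out. In TG+MI against WT+MI, 0 to 2 were higher and 0 to 5 lower without single arrays. There, 2 were higher with normexp, with genes above background on all 12 arrays and with the mean over probes, and 0 higher without the filter, with the slide block, the replicate block, only both groups, or both arrays out. Lower genes numbered 0 without the filter, with the mean over probes, the slide block, only both groups, or both arrays out. In TG+MI against TG, 2 to 13 were higher and 0 to 1 lower without single arrays. There, 4 were higher without the filter, 0 with the slide block, 0 on slide 2 alone, 4 with only both groups and 19 with both arrays out, and 1 was lower in the authors' table and 3 with both arrays out. In the interaction, 1 to 5 were lower without single arrays, 1 without the filter, 1 with the mean over probes and 0 with the slide block. Ern1 in WT+MI against WT was 0.039 and turned to -0.042 with both arrays out, with a range of -0.042 (without WT+MI 1) to 0.096 without single arrays. Without the filter 36982 genes were tested, which raises adjusted p-values; other causes were not tested. With the replicate block, 24 genes were higher and 2 lower in WT+MI, 2 lower in TG+MI against WT+MI, 7 higher in TG+MI against TG and 2 lower in the interaction, so that Ddit4, Vldlr, Atf3 and Syvn1 lost a call. In WT+MI, Cebpg (adjusted p = 0.0743) also lost its call while Eif2ak3 (adjusted p = 0.0243) gained one. No fit within a slide was possible for TG+MI against WT+MI or for the interaction. Single genes kept direction and side of the threshold in 1457 alternative values, were weaker in 174, stronger in 70 and turned in 2. Precision is limited by 3 arrays per group and by dim probes such as those of Fgf21.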
